A study of Mus musculus with 4 samples.

Results

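Mitochondrial ribosomal proteins are encoded by nuclear genes and are imported into mitochondria, where they join mitochondrial rRNAs to form the ribosome (mitoribosome) that translates the proteins encoded by mitochondrial DNA. These products are core parts of the respiratory chain and ATP synthase, on which the beating cardiomyocyte (CM) relies as it turns to oxidative metabolism after birth. The genes were chosen by symbol, as protein-coding genes named *Mrpl* or *Mrps* followed by a digit, with no measured value used. This gave 78 of the 24454 genes in the count table, of which 49 are named for the large and 29 for the small subunit. All 78 passed the low-count filter and were tested.

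RNA-seq was performed on hearts of P7 mice on a C57BL/6 background, with no part of the heart named. Ctrl hearts came from *miR-128*TetRE mice, which carry the inducible *miR-128* transgene without its driver. The miR-128OE hearts came from *α-MHC*-tTA; *miR-128*TetRE mice, in which the *α-MHC* promoter drives the Tet-off activator in CMs and doxycycline (Dox) keeps the transgene silent. Thus both groups carry the transgene and differ in the activator, and the Dox schedule of these P7 hearts is not given in the sources used here. Each group had 2 libraries, WH7 and WH8 for Ctrl and WH9 and WH10 for miR-128OE. The labels do not say whether libraries came from separate animals, so p-values measure the spread between these libraries.

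Library totals ranged from 8096870 to 14359838 counts, and the members took 0.395% of the counts in each Ctrl library and 0.458% to 0.465% in the miR-128OE libraries. The gene *Mir128-2* had 0 to 10 counts per library and *Mir128-1* had 0, which is too low to check the transgene. *Xist* had 11339 to 14543 counts in Ctrl and 94 to 132 in miR-128OE libraries, and the Y-linked *Ddx3y* had 7 to 13 against 1442 to 1768, so that condition and sex cannot be told apart. All 78 members lie on autosomes. In heart tissue, fewer cells of a type and less RNA per cell cannot be told apart.

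Sequences of the overexpressed miRNA and of its matches among the members are shown first, because the member with the highest fold change and 1 of the 2 members that fell carry such matches. The mature *miR-128-3p* in RefSeq (GRCm38.p6, chr1:128202404-128202424, + strand) is given with its seed, bases 2 to 8, in capitals. The members' matches come from the 3′UTRs of GENCODE M21 (GRCm38), with the searched letters in capitals. These are CACTGTG, which pairs with the whole seed, or ACTGTGA, which pairs with all but its last base and ends in an A opposite base 1, or both words joined.
miR-128-3p: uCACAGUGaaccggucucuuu
Mrps11, first match, chr7:78792815-78792821, + strand: tacagaaggccCACTGTGgaagccgctgg
Mrps11, last match, chr7:78792939-78792945, + strand: aaccccaggccCACTGTGgccagctcagc
Mrpl47, 1 of 2 matches, chr3:32725433-32725440, − strand: aaaatatggtgCACTGTGAgatgataaaac
Mrps35, 1 of 3 matches, chr6:147072709-147072716, + strand: agaagaaccagCACTGTGAtccagggcggg
Mrps18a, chr17:46128819-46128825, + strand: gatctcctggcCACTGTGgtcttctgcct
Mrps5, first match, chr2:127604319-127604325, + strand: ggtagtgatccCACTGTGtctgaagtgtg
Mrps5, last match, chr2:127606063-127606069, + strand: ctggggtggtgACTGTGAcagccactcct

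The mitoribosome genes were mostly higher in miR-128OE hearts. The quasi-likelihood (QL) test of edgeR was applied to 14266 genes, and p-values were adjusted over all of them by the Benjamini-Hochberg method. At an adjusted p-value under 0.05, 49 of the 78 members (62.8%) were higher, against 16.5% of all tested genes. Only *Mrpl16* and *Mrps5* were lower, 2 of 78, against 15.0% of all tested genes. The remaining 27 did not pass the threshold, 22 of them with a fold change above and 5 below 0 on the log2 scale. The median log2 fold change of the members was 0.35, with a range from −0.50 to 1.06, and that of all tested genes was −0.014. In 68 members both miR-128OE libraries were above both Ctrl libraries, as in 33.7% of all tested genes, and in 4 they were below, as in 34.4%.

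The changes were moderate in size. Of the 49 higher members, 12 were over 1.5-fold higher, and the highest was *Mrps11*. The summed normalized count of all members, scaled to a common library size, was 44977 ± 374 in Ctrl and 56332 ± 1371 in miR-128OE hearts (both SD, n = 2), a ratio of 1.25. The lowest fold change that passed in the higher direction was 0.26 on the log2 scale, and the standard error (SE) of a member had a median of 0.095. With miR-128OE library WH9 left out, 13 members rose and 0 fell, against 6.13% of all tested genes higher in that fit, and the median log2 fold change was 0.33. With WH10 left out, 25 rose and 0 fell, against 8.65% of all tested genes higher, and the median was 0.37. These fits have a single miR-128OE library, which is taken to vary like the Ctrl libraries. With total counts in place of TMM scaling, 30 were higher and 3 were lower. In that fit 11.3% of all tested genes were higher and 2948 of 14266 were lower, and the median of all genes moved to −0.11.

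**Figure D1:**
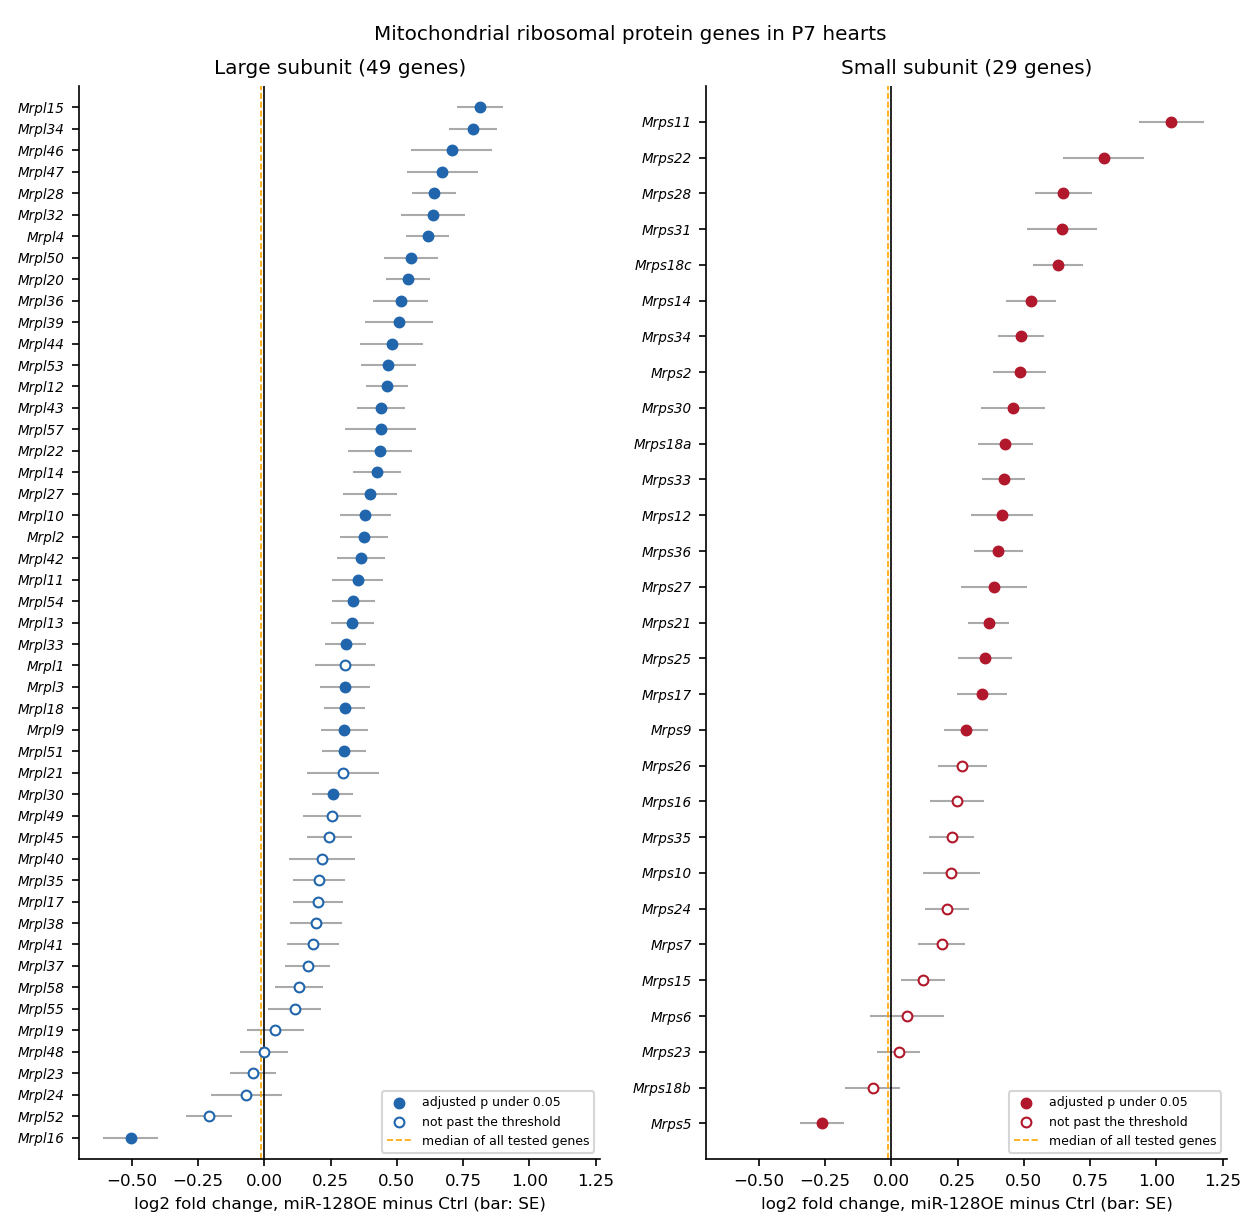
Log2 fold change between miR-128OE and Ctrl hearts (x axis) of each member (y axis) in the large and small subunit, with bars for the standard error, filled points for an adjusted p-value under 0.05 and a dashed line at the median of all tested genes. Most points of both subunits lie to the right of 0, and the filled points to the left are *Mrpl16* and *Mrps5*.

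In the large subunit, which forms peptide bonds, 31 of 49 members rose and 1 fell, and the median log2 fold change was 0.33. In the small subunit, which binds the mRNA and decodes it, 18 of 29 were higher and 1 was lower, with a median of 0.37. The difference of the medians, large minus small, was −0.037. In mean log2 CPM the rise was 0.33 in the large and 0.36 in the small subunit. The difference between the subunits in that mean had an SD of 0.0061 between replicates, which is no scale for a difference of medians. The summed counts, given next, ranked the subunits the other way, with miR-128OE over Ctrl ratios of 1.256 for the large and 1.246 for the small. The difference between the subunits was not tested, as 2 libraries against 2 allow no small p. The sum of normalized counts over large subunit members was 29853 ± 245 in Ctrl and 37490 ± 1041 in miR-128OE hearts (both SD, n = 2). For the small subunit it was 15124 ± 128.3 (SD, n = 2) and 18843 ± 330 (SD, n = 2). The ratio of the sums was 1.9743 in WH7, 1.9735 in WH8, 2.0038 in WH9 and 1.975 in WH10, so the ratios lay close together while both sums were higher in each miR-128OE library. Such sums of transcripts do not count ribosomal particles.

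**Figure D2:**
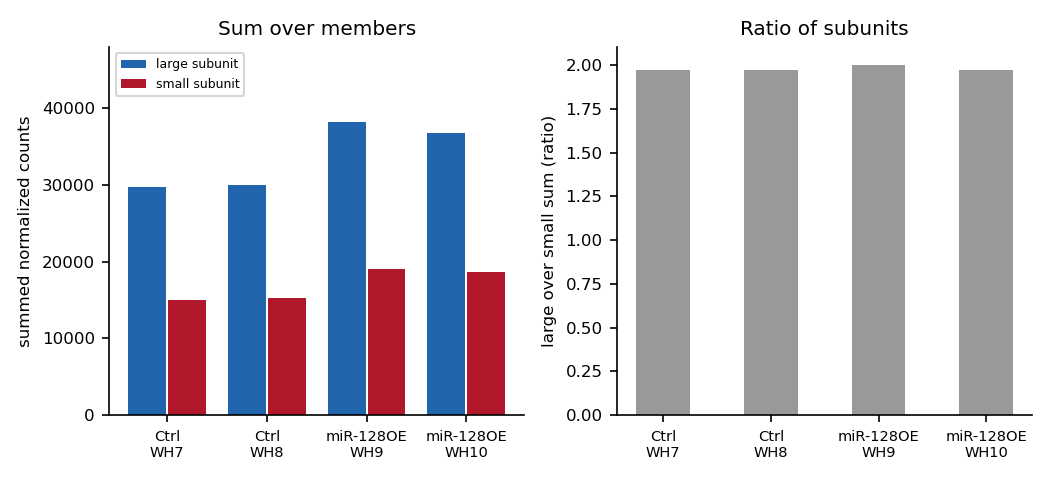
Summed normalized counts of large and small subunit members (left, y axis) and the ratio of the sums (right, y axis) in each of the 4 libraries (x axis). Bars start at 0, and the bars of both subunits are taller in the miR-128OE libraries while the ratio stays between 1.9735 and 2.0038.

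Symbols do not follow structure for a few proteins. *Mrps18a* and *Mrps30* encode proteins that sit in the large subunit, and *Mrps36* encodes a protein now assigned to the 2-oxoglutarate dehydrogenase complex. When the genes were placed by structure, 33 of 51 large and 15 of 26 small subunit members were higher, and the difference of the medians was −0.014. *Mrps18a* had 631 and 568 normalized counts in Ctrl and 871 and 751 in miR-128OE libraries (log2 fold change 0.43, edgeR QL adjusted p = 0.0124). *Mrps30* had 333 and 355 against 429 and 513 (log2 fold change 0.46). *Mrps36* had 674 and 748 against 978 and 897 (log2 fold change 0.40). All 3 rose, with no overlap between the groups.

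Among the small subunit proteins with bacterial homologs, *Mrps11*, *Mrps28* and *Mrps18c* led. *Mrps11*, a protein of the small subunit platform (Entrez Gene 67994, chr7:78783119-78792989), had 243 and 204 normalized counts in Ctrl and 478 and 459 in miR-128OE libraries. It was 2.08-fold higher, and its log2 fold change was 1.06 (SE 0.12, edgeR QL adjusted p = 0.000374). The exons of *Mrps11* overlap those of *Mrpl46* on the opposite strand, and as the strand setting of the counting is not given, their reads cannot be told apart there. *Mrps28*, related to bacterial S1, had 333 and 355 normalized counts in the Ctrl libraries, against 569 and 508 (log2 fold change 0.65, edgeR QL adjusted p = 0.00215). *Mrps14*, in which mutations cause a human mitochondrial disease with cardiomyopathy, had 433 and 449 against 653 and 617 (log2 fold change 0.53, edgeR QL adjusted p = 0.00307). Over the list of 16 small subunit proteins with bacterial homologs, 9 were higher and 1 was lower.

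Of 10 small subunit proteins listed as specific to mitochondria, 6 were higher and 0 were lower. The list holds *Mrps18b*, although it is a paralog of the bacterial-type *Mrps18c*. *Mrps22*, mutated in human mitochondrial disease with cardiomyopathy (Entrez Gene 64655, chromosome 9), had 138 and 153 normalized counts in Ctrl and 277 and 228 in miR-128OE libraries, and was 1.74-fold higher (log2 fold change 0.80, SE 0.15, edgeR QL adjusted p = 0.0045). *Mrps31* had 204 and 178 against 315 and 287 (log2 fold change 0.64). *Mrps34* and *Mrps33* rose by less, with log2 fold changes of 0.49 and 0.42. *Mrps23* had 835 and 854 in Ctrl and 874 and 848 in miR-128OE libraries, so its groups overlapped and its sign turned under 3 other scalings.

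The 3 *Mrps18* paralogs derive from 1 bacterial protein and occupy different places in the ribosome. *Mrps18c* had 432 and 471 normalized counts in Ctrl and 688 and 703 in miR-128OE libraries (log2 fold change 0.63, SE 0.094, edgeR QL adjusted p = 0.00127). *Mrps18b* had 381 and 382 against 361 and 365 (log2 fold change −0.07, SE 0.10, edgeR QL adjusted p = 0.638). The paralogs *Mrps18c* and *Mrps18a* thus rose, whereas the value of *Mrps18b* lay within its standard error of 0. The difference between paralogs was not tested.

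In the large subunit, 21 of 29 proteins with bacterial homologs were higher and 1 was lower. *Mrpl15* (Entrez Gene 27395, chr1:4773206-4785739) had 502 and 530 normalized counts in Ctrl and 916 and 895 in miR-128OE libraries, and was 1.76-fold higher (log2 fold change 0.81, SE 0.087, edgeR QL adjusted p = 0.000241). *Mrpl34* had 412 and 420 against 734 and 701 (log2 fold change 0.79, edgeR QL adjusted p = 0.000388). *Mrpl28* had 690 and 697 against 1109 and 1055 (log2 fold change 0.64, edgeR QL adjusted p = 0.000604). *Mrpl4*, *Mrpl20* and *Mrpl32* also rose, with log2 fold changes of 0.62, 0.54 and 0.64. In each of these genes the groups were separated by more than the spread between replicates.

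Of the 19 large subunit proteins without bacterial homologs, 10 rose and 0 fell, and the median log2 fold change was 0.30. *Mrpl46*, of the central protuberance, had 262 and 192 normalized counts in Ctrl and 397 and 356 in miR-128OE libraries (log2 fold change 0.71, SE 0.15, edgeR QL adjusted p = 0.00785). *Mrpl50* had 360 and 339 against 513 and 516 (log2 fold change 0.55). *Mrpl44*, in which mutations cause infantile cardiomyopathy in humans, had 290 and 343 against 447 and 431 (log2 fold change 0.48, edgeR QL adjusted p = 0.0134). *Mrpl52* was an exception, with 834 and 793 in Ctrl and 681 and 727 in miR-128OE libraries (log2 fold change −0.21, edgeR QL adjusted p = 0.0934), below Ctrl in both libraries without passing the threshold. It passed with total counts (edgeR QL adjusted p = 0.0272) and with an offset for GC content and length (edgeR QL adjusted p = 0.018).

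**Figure D3:**
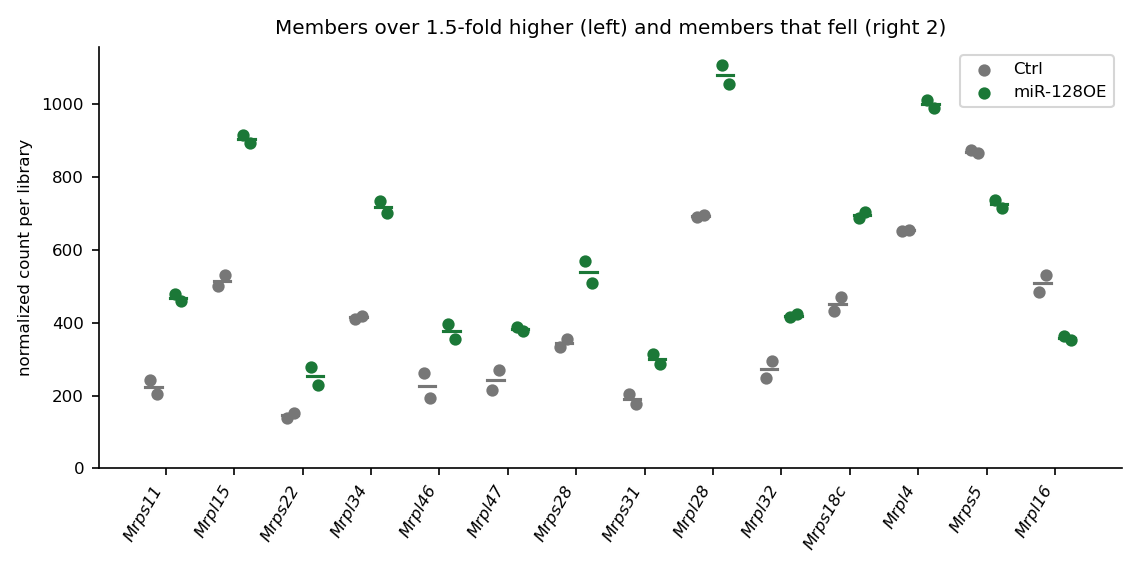
Normalized counts per library (y axis, from 0) of the 12 members over 1.5-fold higher and of *Mrps5* and *Mrpl16*, which fell (x axis), with grey points for Ctrl and green points for miR-128OE libraries and lines at the group means. In each gene the 2 groups are separated, upward in the first 12 and downward in the last 2.

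Grouped by place in the large subunit, the stalk that recruits translation factors had 3 of 3 members higher. *Mrpl12*, the mitochondrial counterpart of L7/L12, had 1631 and 1556 normalized counts in Ctrl and 2278 and 2117 in miR-128OE libraries (log2 fold change 0.46, edgeR QL adjusted p = 0.00263). *Mrpl10* and *Mrpl11* had log2 fold changes of 0.38 and 0.35. At the central protuberance, where the large subunit meets the small one, 3 of 6 members were higher, with a median of 0.26. Around the peptide exit tunnel, through which the nascent chain leaves, 3 of 7 were higher. These were *Mrpl47* (log2 fold change 0.67), *Mrpl32* (0.64) and *Mrpl22* (0.44), the last named after its values were seen. Exons of *Mrpl47* overlap those of *Actl6a* and *Ndufb5* on the opposite strand, so their reads cannot be told apart there. *Ndufb5* had a mean of 2782 normalized counts in Ctrl, against 243 for *Mrpl47*, and a log2 fold change of 0.81.

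Other tunnel proteins did not pass the threshold. *Mrpl45*, which anchors the ribosome to the inner membrane, had 692 and 666 normalized counts in Ctrl and 796 and 815 in miR-128OE libraries (log2 fold change 0.25, edgeR QL adjusted p = 0.0509), just outside the threshold. *Mrpl24* had 336 and 431 against 374 and 352, with groups that overlapped. *Mrpl3*, in which mutations cause human cardiomyopathy and which lies elsewhere in the large subunit, had 517 and 565 against 686 and 647 (log2 fold change 0.30, edgeR QL adjusted p = 0.0356). Of the 4 members tied to human cardiomyopathy (*Mrpl3*, *Mrpl44*, *Mrps14* and *Mrps22*), 4 were higher, against 62.8% of all members and 16.5% of all tested genes. Each of them lost its call in some of the other fits. The call of *Mrpl3* was lost with DESeq2 (adjusted p = 0.12), with total counts or upper-quartile factors (edgeR QL adjusted p = 0.121 and 0.061), and without WH7, WH9 or WH10 (edgeR QL adjusted p = 0.0936, 0.239 and 0.108).

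The members that fell were 1 of each subunit. *Mrpl16*, a bacterial-type protein near the peptidyl transferase centre (Entrez Gene 94063, chromosome 19), had 485 and 531 normalized counts in Ctrl and 362 and 352 in miR-128OE libraries. The Ctrl mean was 508 ± 33.1 (SD, n = 2) and the miR-128OE mean 357 ± 7.04 (SD, n = 2), a log2 fold change of −0.50 (SE 0.10, edgeR QL adjusted p = 0.00632). Its 3′UTR of 327 bases holds 0 seed matches of *miR-128*. *Mrps5*, a core protein of the small subunit (Entrez Gene 77721, chromosome 2), had 873 and 865 in Ctrl and 737 and 714 in miR-128OE libraries, a log2 fold change of −0.26 (SE 0.082, edgeR QL adjusted p = 0.0364). Its 3′UTR of 2976 bases holds the 2 matches printed above. The call of *Mrps5* was lost with DESeq2 (adjusted p = 0.151) and with an offset for GC content and length (edgeR QL adjusted p = 0.126). Both *Mrpl16* and *Mrps5* lost their call without WH9 and without WH10. Across the fits, log2 fold changes ran from −0.60 to −0.44 for *Mrpl16* and from −0.36 to −0.18 for *Mrps5*. A near-identical copy of *Mrps5* elsewhere in the genome can share its reads.

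Seed matches of *miR-128* (CACTGTG or ACTGTGA) occurred in the 3′UTR of 18 of 78 members (23.1%), against 30.98% of all tested genes with a 3′UTR. The 3′UTRs of the members were shorter, with a median of 388.5 bases against 1198. Of the 18 members with a match, 13 rose and 1 fell, and their median log2 fold change was 0.38. Of the 60 without one, 36 rose and 1 fell, and the median was 0.31. *Mrps11* carries 2 matches and was the highest of all members, *Mrpl47* and *Mrps35* carry an 8-base match and had log2 fold changes of 0.67 and 0.23, and *Mrps18a* rose. *Mrps35* was chosen after its values were seen and did not pass the threshold (edgeR QL adjusted p = 0.0717). A match is a description of letters, not a site of action.

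Levels differed widely between members. Per kilobase of transcript, averaged over the 4 libraries, *Mrpl33* and *Mrpl42* of the large subunit had the highest levels, at 3309 and 3150 normalized counts per kilobase, followed by *Mrps21* at 2461. *Mrpl52* was at 1815, *Mrps36* at 1176 and *Mrps18c* at 899. At the low end were *Mrps25* at 74.1, *Mrpl17* at 74.97, *Mrpl1* at 88.6 and *Mrpl47* at 93.0, with *Mrps30* at 123 and *Mrps26* at 135 next in the small subunit. The median member was at 371, against 89.1 for all tested genes. Transcript lengths were taken from 1 annotated transcript per gene, so long 3′UTRs that are not used in heart would lower such a level.

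Members of all levels rose. Across the 78 members, the log2 fold change had a Pearson r of −0.041 and a Spearman rho of −0.011 with the log2 level per kilobase, given as a description because the members share the 4 libraries. *Mrpl33*, *Mrpl42* and *Mrps21*, the highest by level, had log2 fold changes of 0.31, 0.37 and 0.37. *Mrps25*, the lowest, had 0.35. *Mrpl1*, *Mrpl17* and *Mrps26*, also low, had values of 0.31, 0.20 and 0.27 and did not pass the threshold (edgeR QL adjusted p = 0.0664, 0.134 and 0.0537).

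**Figure D4:**
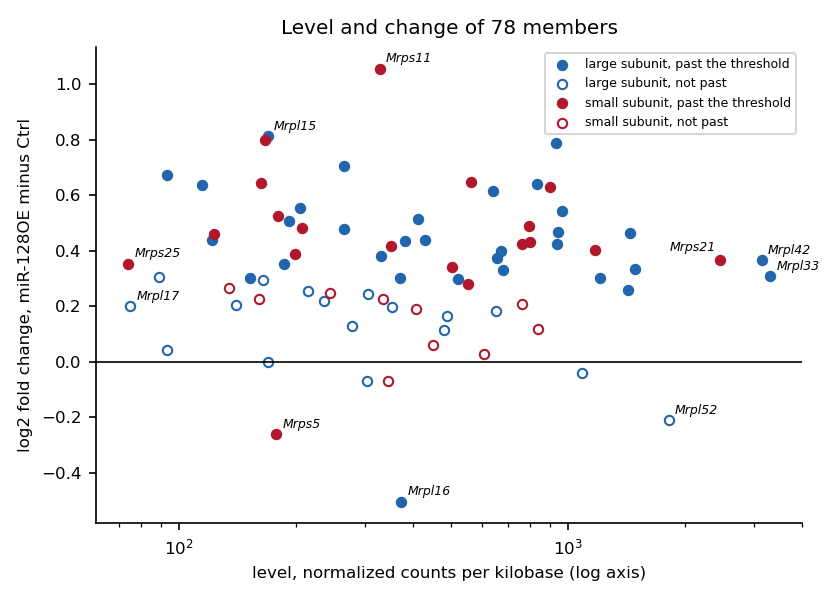
Level of each member in normalized counts per kilobase, averaged over 4 libraries (x axis, log scale), against its log2 fold change between miR-128OE and Ctrl hearts (y axis), with blue points for the large and red points for the small subunit and filled points past the threshold. Genes from 74.1 to 3309 per kilobase lie on both sides of the members' median, and the 3 genes of highest level are above 0.

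Member transcripts are short, and short genes were higher more often in these libraries. The median transcript length was 1253 bases for members and 3047.5 for all tested genes, and among the shortest 20% of all tested genes 24.3% were higher, with a median log2 fold change of 0.11, against 11.5% and −0.10 for the longest 20%. With an offset for GC content and length, 44 members rose and 2 fell, against 17.6% of all tested genes higher. The members' median was then 0.30, against 0.016 for all genes. Of the 49 members higher without the offset, 39 were higher with it. Exons of 28 members overlap another annotated gene, and of the other 50, 30 were higher. Overlap was judged from 1 transcript per member against all exons of other genes. *Mrpl46*, which *Mrps11* overlaps, was thus not marked as overlapping a coding gene, so the other members are not all free of overlap. A near-identical copy, named pseudogenes included, was found for 17 members, of which 8 were higher and 1 was lower, against 41 and 1 of the 61 without one.

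Promoters of 69 members were found in RefSeq (GRCm38.p6), each from 250 bases before to 50 after the gene start. They were searched on both strands for letters of factors known to act at nuclear genes of mitochondrial proteins. The word of nuclear respiratory factor 1 (NRF1), which is GCGC, then any base, then TGCGC, was in 13 (18.8%). It was in 7.17% of the 17492 protein-coding genes with a promoter, the set used for each word, which includes genes not tested here. The ETS letters CCGGAAG were in 26 (37.7%) against 12.9%, and the YY1 letters AAGATGG in 13 (18.8%) against 7.18%. The SP1 letters GGGCGG were in 34 (49.3%) against 49.2%. No word contains another of these words. The examples below, from members with large changes or of interest above, have the matching letters in capitals.
Mrpl34, ETS, chr8:71464878-71464906, + strand: aactacagctcCCGGAAGgccccgcggca
Mrps22, ETS, chr9:98601673-98601701, − strand: aacctctcgagCCGGAAGttgctctatcg
Mrps18c, ETS, chr5:100798592-100798620, + strand: gggtcacgtgaCTTCCGGcccgggaagcg
Mrpl52, ETS, chr14:54426851-54426879, + strand: caagatgtcggCTTCCGGttttcccggca
Mrpl12, NRF1, chr11:120484546-120484575, + strand: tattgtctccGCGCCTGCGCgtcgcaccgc
Mrpl32, NRF1, chr13:14613105-14613134, − strand: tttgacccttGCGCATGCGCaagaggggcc
Mrpl44, NRF1, chr1:79775973-79776002, + strand: agaagcacttGCGCACGCGCagtacactag

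Members with and without these letters were set side by side, with no test. Of the 13 members with NRF1 letters, 10 rose and 0 fell, and their log2 fold changes ran from 0.20 to 0.64 around a median of 0.37. Of the 56 members without them, 33 rose and 2 fell, and the median was 0.35. For ETS letters, 17 of 26 were higher with a median of 0.34, against 26 of 43 with a median of 0.35 without them. For YY1 letters, 7 of 13 were higher with a median of 0.37, against 36 of 56 with a median of 0.35. For SP1 letters, 18 of 34 were higher with a median of 0.30, against 25 of 35 with a median of 0.38. *Mrpl34* and *Mrps22*, which rose, and *Mrpl52*, which did not, all carry the ETS word.

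Some mitoribosome proteins have symbols outside the *Mrp* series. Of 5 such genes, 0 were higher by edgeR's QL test, and 0 by DESeq2 or edgeR's exact test. *Aurkaip1*, a small subunit protein, was lower (671 ± 11.7 against 559 ± 23.2 normalized counts, SD, n = 2, log2 fold change −0.27, edgeR QL adjusted p = 0.0478). *Dap3*, a GTP-binding protein of the small subunit, and *Ptcd3*, an RNA-binding one, had log2 fold changes of 0.21 (edgeR QL adjusted p = 0.0683) and 0.19 (edgeR QL adjusted p = 0.0973). At an unadjusted p under 0.05, *Dap3* and *Ptcd3* were higher. With the offset for GC content and length, 2 of the 5 were higher, and 1 was lower. The call of *Aurkaip1* was lost with DESeq2's size factors or test, with no low-count filter, and with WH7, WH9 or WH10 left out.

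Genes that build and run the mitoribosome were called higher more often than lower. Of 26 genes of mitoribosome assembly and rRNA maturation, 4 were higher (15.4%, against 16.5% of all tested genes). In that list 1 was lower, where 15.0% of all tested genes were lower. *Grsf1*, an RNA-binding protein of mitochondrial RNA granules, rose from 1396 to 1851 normalized counts on average (log2 fold change 0.41, edgeR QL adjusted p = 0.0071). *Nsun4*, an rRNA methyltransferase, had a log2 fold change of 0.52, whereas *Mterf3*, which takes part in large subunit assembly, fell with −0.44 (edgeR QL adjusted p = 0.0138). Of 15 translation factors and related genes, 6 were higher (40.0%, against 16.5% of all tested genes) and 1 was lower. The elongation factors *Tufm*, *Tsfm* and *Gfm1* had log2 fold changes of 0.45, 0.48 and 0.39, the insertase *Oxa1l* of 0.46, and the initiation factor *Mtif2* of −0.40 (edgeR QL adjusted p = 0.0077). *Tsfm* and *Gfm1* were named after their values were seen.

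Genes of mitochondrial transcription had 4 of 13 higher (30.8%) and 0 lower, against 16.5% higher and 15.0% lower of all tested genes. *Polrmt*, the mitochondrial RNA polymerase, was higher (log2 fold change 0.38, edgeR QL adjusted p = 0.0306), as were *Hsd17b10*, a subunit of mitochondrial RNase P, at 0.42, and *Supv3l1*, an RNA helicase, at 0.38. *Tfam*, which packages mitochondrial DNA and was named after its values were seen, had a value of 0.028 (edgeR QL adjusted p = 0.846). The transcripts and rRNAs of mitochondrial DNA were not analysed here, so no value bears on the ribosome's products.

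Set beside other large assemblies, the members lay between them. Over all tested genes, 16.5% were higher and 15.0% lower. Of 35 tested complex I subunit genes, 31 rose (88.6%) and 0 fell, and the median log2 fold change was 0.52. Of 77 tested cytosolic ribosomal protein genes, 2 rose (2.6%), the paralogs *Rpl3l* and *Rps27l*. In that list 11 fell, a share near that of all tested genes, and the median was −0.090. The mean log2 CPM of the members was 5.42 ± 0.0092 in Ctrl and 5.76 ± 0.027 in miR-128OE hearts, and that of the cytosolic ribosomal protein genes was 8.89 ± 0.052 and 8.81 ± 0.00099 (all SD, n = 2). The difference between the parts was not tested, since with 2 libraries against 2 an exact permutation test cannot go below 0.33, two-sided.

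**Figure D5:**
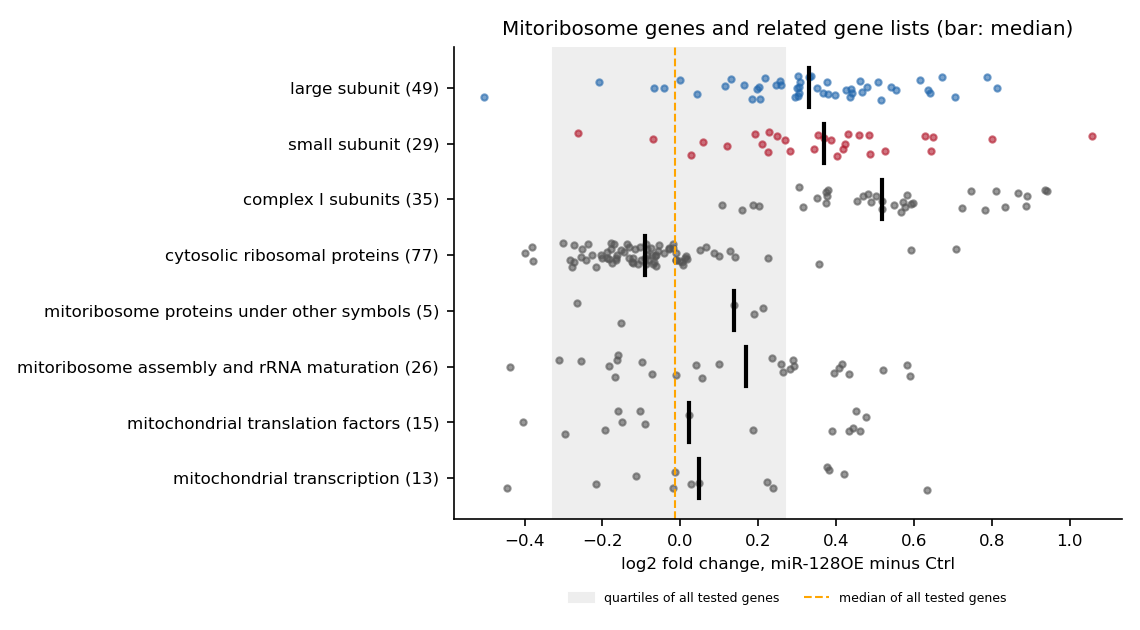
Log2 fold change between miR-128OE and Ctrl hearts (x axis) of each gene in 8 lists (y axis, number of genes in brackets), with a black bar at each median, a grey band between the quartiles of all tested genes and a dashed line at their median. The medians of both subunits, 0.33 and 0.37, lie right of the band, below the complex I median of 0.52 and above the cytosolic ribosomal protein median of −0.090.

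Several markers of CMs, brown fat and red cells were higher in miR-128OE hearts, and other cell types showed fewer changes. Over all tested genes, 16.5% were higher and 15.0% lower. Of 8 CM markers, 5 were higher and 1 was lower, with a summed level of 34380 to 35320 CPM in Ctrl and 42610 to 42760 in miR-128OE libraries, and 0 of the 8 were at 0. *Myh7*, *Mb* and *Actn2* rose (log2 fold changes 1.55, 0.99 and 0.76 by the QL test), whereas *Ryr2* fell (−0.40). Of 7 tested brown fat markers, 5 were higher, with a summed level of 565 to 587 CPM in Ctrl and 920 to 924 in miR-128OE libraries, and *Ucp1* rose, with 51.2 and 4.24 normalized counts in Ctrl and 250.5 and 159 in miR-128OE libraries. Most of that sum came from *Cox7a1* and *Cox8b*, which heart also expresses, so it is no measure of brown fat. Their log2 fold changes were 0.91 and 0.73, and their mean normalized counts were 2149.5 and 3728 in Ctrl and 4033 and 6189 in miR-128OE hearts. Among red cell markers, *Alas2* was higher, with 445 and 304 normalized counts in Ctrl and 823 and 756 in miR-128OE libraries (log2 fold change 1.05, edgeR QL adjusted p = 0.00106), and the 4 globin genes of the list were at 0 in every library. The part of these cell types in the rise of the members was not tested.

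In the other marker lists, at most 3 markers rose, where 16.5% of all tested genes were higher and 15.0% lower. Fibroblast markers had 1 of 8 higher and 0 lower, with a summed level of 6650 to 10340 CPM in Ctrl and 8377 to 9257 in miR-128OE libraries. Endothelial markers had 2 higher and 2 lower of 8 (3461 to 3508 against 3215 to 3337 CPM), and smooth muscle and pericyte markers had 3 higher and 1 lower of 8 (2021 to 2139 against 2402 to 2739 CPM). Macrophage markers had 0 higher and 1 lower of 8 (115 to 158 against 106 to 110 CPM), and Schwann cell markers had 2 higher and 1 lower of 8 (117 to 154 against 159 to 160 CPM).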

How the data were processed

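RNA-seq counts of P7 mouse hearts were used, from 2 Ctrl and 2 miR-128OE libraries. Per the study's methods, reads of low quality were discarded, TopHat2 aligned those left to mm10, and the authors deposited the count of reads on each known gene, not normalized. Gene models, strand and the treatment of reads that fit several genes are not given in the sources used here. The counts were tested with edgeR 4.0.16 (R 4.3.3), using filterByExpr (minimum count 10, minimum total 15), TMM factors and the quasi-likelihood test over all 14266 genes kept of 24454, with Benjamini-Hochberg adjustment and a threshold of 0.05. Normalized counts are TMM-scaled to the mean effective library size. Log2 CPM used a prior count of 2. Entrez identifiers were matched to RefSeq symbols for 24374 genes. Lengths and 3′UTRs came from GENCODE M21, and copies from blastn 2.17.0 (at least 95% identity over 100 bases). The test was checked on simulated counts, where the share of false calls among its calls was above the nominal 0.05. The members and lists (subunit, bacterial homology, place in the ribosome, assembly, translation, transcription and cell type markers) were chosen with earlier results of these data known. The summed level of the red cell list is not reported here.

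Genes are named by a rule: in each subunit the 8 smallest p-values, the 3 highest and 3 lowest by fold change and by level, members that fell, *Mrps18* paralogs, cardiomyopathy genes, the stalk, *Mrpl45*, and the 3 smallest p-values in each related list with any gene against its majority. Alternatives were other size factors, tests (DESeq2 1.42.0, exact), filters, thresholds and member lists, a loess offset (span 0.5) for GC content and transcript length, and each library left out.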

Additional observations from a re-analysis of the deposited data

How the results depend on the processing

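The members were higher on balance in each fit, with medians from 0.25 to 0.37 on the log2 scale. With total counts, 30 members were higher (18 large), against 11.3% of all tested genes, and the members' median was 0.25. That median was 0.30 with upper-quartile factors and 0.30 with the GC content and length offset. In these the members' median exceeded that of all genes by 0.36, 0.36 and 0.28. A 1.5-fold minimum left 12 higher (7 large, 5 small) and 0 lower. Without the members marked for overlap, 30 were higher (18 large), as fewer members enter. DESeq2 kept 1 lower member. Leaving out each library gave 13 to 51 higher and 0 to 2 lower members, 8 to 31 large and 5 to 20 small ones, and medians from 0.33 to 0.37. Of all tested genes, 6.13% to 18.2% were higher in these fits.

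The large minus small difference was −0.0232 with the offset, −0.0137 with subunits by structure, −0.0231 with proteins under other symbols, and −0.0343 to −0.0232 with libraries left out. The sign turned for *Mrps23*, at −0.071 with total counts, −0.017 with upper-quartile factors and −0.033 with the offset, and for *Mrpl24*, at 0.11 without WH8 (−0.25 without WH7). The causes were not tested. Without WH9 or without WH10, fits with a single miR-128OE library, many of the named members that had a call lost it. Fewer did so without WH10 than without WH9. The members' median log2 fold change was 0.33 without WH9 and 0.37 without WH10. With 2 libraries a group, only changes large against a standard error near 0.095 could pass. No paired analysis was possible because the labels give no replicate numbers that groups share.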
